A study of Mus musculus with 12 samples.

Results

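The genes described here encode secreted proteins of the extracellular matrix other than collagens, and the enzymes that crosslink or fill it. They are the 40 rows of the deposited gene table, out of 23586, whose gene name stands on a list of matrix glycoproteins, laminins and crosslinkers. By role they comprise 12 adhesive glycoproteins, 9 laminins and other basement membrane proteins, 11 elastic fibre and microfibril proteins, 5 crosslinking enzymes, and 3 genes of proteoglycans and hyaluronan synthesis. RNA-seq was done on cultured mouse muscle stem cells of the genotype Pax3nLacZ-IRES-GFP, an allele in which GFP and nuclear LacZ report Pax3. Cells had been sorted by GFP, then transfected with 2 µg of either pCR3-Six2, which carries the mouse Six2 cDNA, or the empty pCR3 plasmid. The 4 groups of 3 libraries are therefore GFP-negative control, GFP-negative SIX2, GFP-positive control and GFP-positive SIX2. All 4 share the reporter allele, the transfection and a growth medium with 20% serum and 4 ng/mL basic FGF. Animal age, and whether replicates came from separate animals or cultures, are not given in the sources used here, and the p-values below therefore speak of differences among these 12 libraries, which may be technical.

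Muscle stem cells lie between the muscle fibre and its basement membrane, a sheet in which laminin heterotrimers and collagen IV networks are joined by nidogens and perlecan. Beyond it, fibronectin, thrombospondins, tenascin and periostin bind cells to collagen, while fibrillin microfibrils carry elastin, latent growth factors and fibulins. Lysyl oxidases crosslink collagen and elastin, and versican, biglycan and hyaluronan hold water and growth factors between the fibres. SIX2 and its relatives are homeodomain transcription factors, several of them active in muscle development, and the comparison of plasmids asks how Six2 overexpression changes transcripts in each sorted population.

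Depth ranged from 12438885 to 47299937 reads per library. The GFP-positive SIX2 libraries had 12632428 to 15492340 reads, against 31295165 to 47299937 in GFP-positive controls. The GFP-negative SIX2 libraries had 34048869 to 40182810, against 12438885 to 33151990 in GFP-negative controls. Plasmid label and depth thus moved together in both comparisons, in opposite directions. Six2 itself did not check the plasmid labels: its level rested on 2 to 36 reads in every library, and the SIX2 minus control difference was 0.80 (adjusted p = 0.421) in GFP-negative and 1.26 (adjusted p = 0.209) in GFP-positive libraries. The GFP-positive minus GFP-negative difference of Pax3 under the control plasmid was not called (-0.01, adjusted p = 0.991), and Pax3 fell with the SIX2 label in both populations, from a mean of 71.4 to 16.5 (-2.06, adjusted p = 0.0022) and from 72.2 to 10.4 (-2.82, adjusted p = 0.00029), so groups are named throughout as labelled. Of 8 markers of muscle stem cells Des, Itga7, Myod1 and Myf5 were high in all groups, Pax7 had group means of at most 169.5, and Chodl and Calcr were near 0. Their summed level was 211629 to 240744 in GFP-negative controls, 143114 to 167087 under SIX2, 214070 to 234413 in GFP-positive controls and 183305 to 204649 under SIX2. Most of that sum was Des, which fell in both comparisons (-0.67 and -0.29), while Myf5 (1.32 and 0.77) and Pax7 (0.58 and 0.79) rose in both, and Itga7 (-0.32) and Cdh15 (-0.29) fell in GFP-negative libraries. Of 10 markers of fibro-adipogenic cells, 7 were in the table and 3 were tested. Ly6a rose in both plasmid comparisons, from a mean of 8.93 to 32.2 and from 4.77 to 27.2. The list's summed level was 38.5 to 55.7 in GFP-negative control, 75.7 to 93.8 in GFP-negative SIX2, 31.4 to 86.1 in GFP-positive control and 73.2 to 85.7 in GFP-positive SIX2 libraries. Pdgfra had group means of 8.11 to 15.6 and Cd34 of 26.8 to 39.6, neither called in any comparison. Dcn was at 0 in 3 of the 4 groups. Endothelial markers summed to at most 41.3 in any library and glial markers to at most 25.7. Among immune markers, which summed to 19.3 to 58.0, Csf1r rose in both comparisons on at most 54 reads. Mural markers summed to 2818 to 3391 in GFP-negative controls, 2072 to 2929 under SIX2, 3279 to 3630 in GFP-positive controls and 2185 to 3173 under SIX2, with Notch3 rising and Cspg4 falling in both. Tendon markers summed to 2155 to 2366, 1797 to 1959, 2142 to 2357 and 1789 to 2283 in the same order; Scx fell in both, and Mkx rose in GFP-negative libraries from a mean of 25.3 to 77.0 (1.61, adjusted p = 0.00384). The part of such cells in the results below was not tested, and in bulk RNA fewer cells of a type and less RNA per cell cannot be told apart.

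More of the matrix genes rose than fell with the SIX2 label in both sorted populations. Postn, Thbs1, Thbs2 and Fbln2 were among those that rose in both, and Mfap4 and Loxl1 fell in both. A level below is a normalized count, scaled by the authors for depth. A difference is on the log2(normalized count + 1) scale with its standard error (SE), from one limma-trend fit over all 12 libraries, and it understates the change of low genes. A gene is called, and said to rise or fall, when its p-value adjusted by Benjamini-Hochberg over all 14580 tested genes is below 0.05. Of the 40 genes 38 had enough reads to test; Eln, which encodes elastin, had reads in 1 library, and Lama4, a laminin alpha chain of vessels and nerve, lay between 0 and 8.93.

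Among the GFP-negative libraries 20 of the 38 genes rose and 3 fell, where 13.6% of all tested genes rose and 14.3% fell. At least 2-fold rises numbered 12 and falls 1, beside 3.72% and 2.52% of all genes. Among the GFP-positive libraries 18 rose and 4 fell (12.1% and 11.2% of all genes), of which 14 rose and 1 fell at least 2-fold (3.53% and 1.56%). Loxl2 and Smoc1, counted among the rises, reached the testing filter of 10 normalized counts only in SIX2-labelled libraries. Svep1 and Mfap2 reached it in 3 libraries only with SIX2-labelled libraries included. These genes were thus tested because of the label under which they were high. The median difference of the 38 was 0.64 and 0.91, against 0.0046 and -0.0070 over all genes. Rises in both comparisons were called for 15 of the 38 (7.42% of all genes), and 2 of the 38, Mfap4 and Loxl1, fell in both (6.31%). With every library thinned to the smallest depth, 20 rose and 2 fell in the GFP-negative comparison, and 17 rose and 3 fell in the GFP-positive one. Of all 14580 genes, 1761 rose and 1906 fell, and 1586 rose and 1427 fell, in the same thinned fit.

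**Figure D1:**
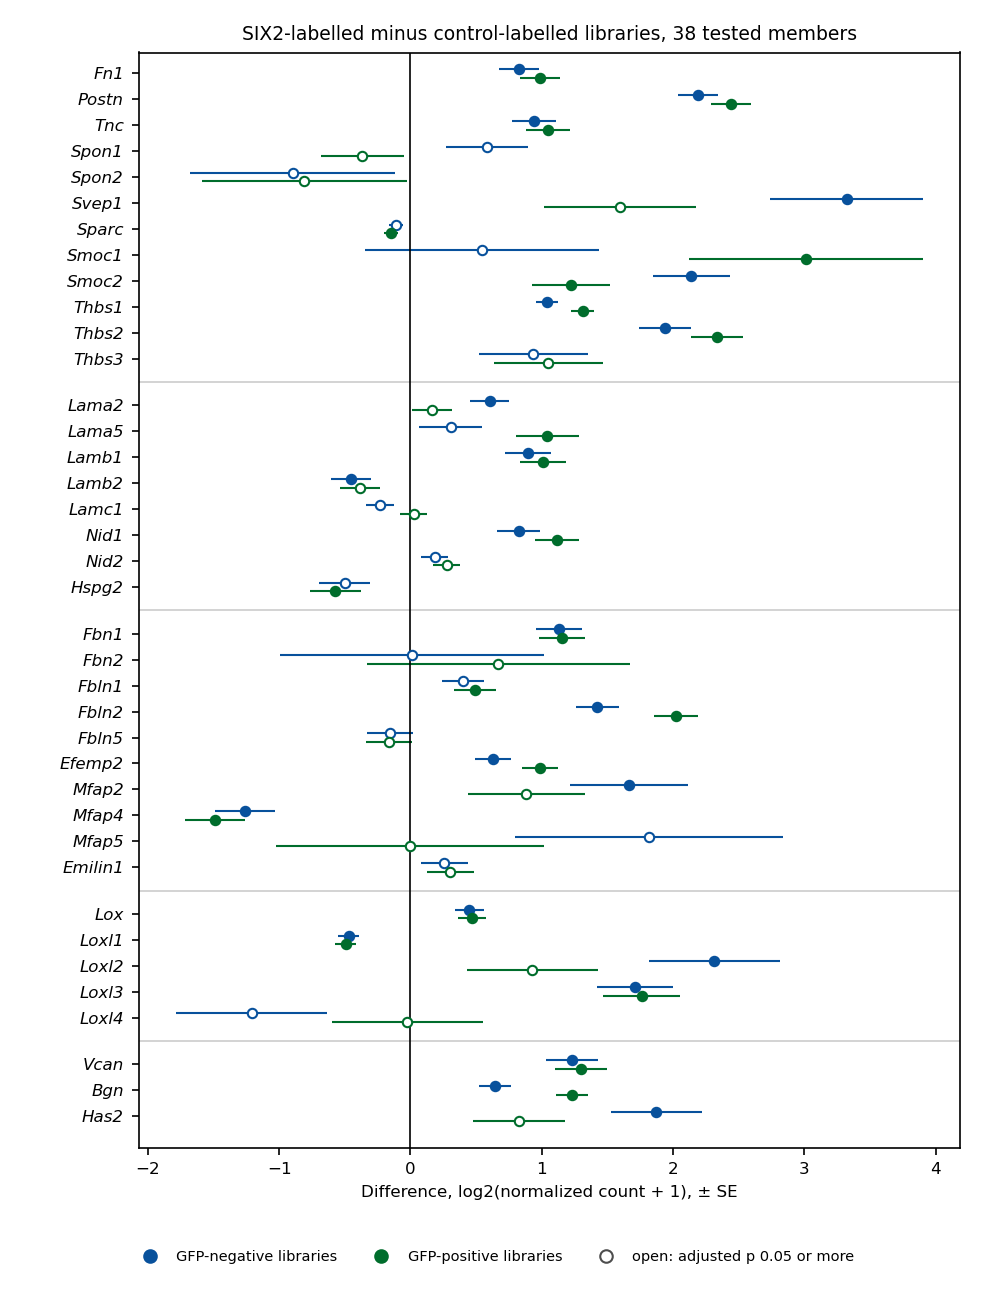
Difference between SIX2-labelled and control-labelled libraries for the 38 tested genes, in log2(normalized count + 1), with the standard error as bars; blue marks GFP-negative and green GFP-positive libraries, filled points have an adjusted p below 0.05, and grey lines part the 5 roles. Most filled points lie to the right of 0, with Mfap4 and Loxl1 to the left in both.

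Of the 12 adhesive glycoproteins, 7 rose in each comparison. Periostin, encoded by Postn on chr3:54361109-54391037 (GRCm38, as are all gene positions here), is a secreted protein that binds collagen and integrins in remodelling tissue. Its level was 278, 209 and 208 in GFP-negative controls and 1020, 985 and 1148 in GFP-negative SIX2 libraries. In GFP-positive libraries it was 158, 154 and 120 under the control and 793, 883 and 679 under the SIX2 label. Neither pair of groups overlapped, and the lowest SIX2-labelled library exceeded the highest control. The group means differed 4.53-fold (2.19, SE 0.15, adjusted p = 1.76e-06) and 5.45-fold (2.44, SE 0.15, adjusted p = 9.17e-07). Tenascin C, an adhesion-modulating glycoprotein of regenerating muscle, had Tnc levels of 4087, 3161 and 2607 against 7375, 6005 and 5365 in GFP-negative and 2752, 3384 and 2262 against 5559, 5218 and 6397 in GFP-positive libraries. It rose in both without overlap (0.94, SE 0.17, adjusted p = 0.00112, and 1.05, SE 0.17, adjusted p = 0.000632). Fibronectin (Fn1), the main bridge between integrins and collagen, lay between 4150 and 6561 in GFP-negative controls and between 8692 and 11118 under SIX2, a rise of 0.83 (SE 0.15, adjusted p = 0.00129). The GFP-positive ranges were 4203 to 5470 and 9092 to 11043, a rise of 0.99 (SE 0.15, adjusted p = 0.000464).

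The MEF3 element, a known DNA site of SIX2 and its relatives, was looked for in promoters of the members. RefSeq promoter windows on GRCm38.p6, 250 bases before to 50 after a start, were given for 22 of the 40 genes, in 29 windows. The MEF3 core TCAGGTT, read on both strands, was found in 1 of the 29, a Postn window, and in 4.07% of all 32851 windows. The 250 bases before that Postn start, at chr3:54360857-54361106 on the plus strand, are shown with the core in capitals, beginning at position 168 from the 5′ end.
Postn: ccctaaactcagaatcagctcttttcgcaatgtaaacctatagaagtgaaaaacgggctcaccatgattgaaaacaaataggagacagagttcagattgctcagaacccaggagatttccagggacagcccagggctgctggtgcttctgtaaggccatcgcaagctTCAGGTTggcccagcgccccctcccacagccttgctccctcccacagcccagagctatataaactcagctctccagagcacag
The E-box CANNTG was in 18 of the 29 windows and 72.31% of all, and the SMAD element CAGAC in 18 of the 29 and 49.59% of all; matches of one motif may overlap those of another. The other Postn window and the Svep1 window held no MEF3 core. A match describes the letters of a window and shows no binding.

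Thrombospondins, which bind cells and other matrix proteins, rose in 2 of 3 cases in both comparisons. Thbs1, also an activator of latent TGF-beta (chr2:118111876-118127133), had levels of 6282, 5397 and 4687 in GFP-negative controls and 11416, 11343 and 10662 in the SIX2 libraries. The GFP-positive values were 4447, 4399 and 4056 against 10434, 10688 and 10890. Every SIX2-labelled library stood above every control (1.04, SE 0.09, adjusted p = 4.67e-06, and 1.31, SE 0.09, adjusted p = 9.17e-07). Thbs2, its relative without the TGF-beta activating role, was lower in level but changed more: 124, 110 and 120 against 428, 537 and 412 in GFP-negative, and 94.1, 83.6 and 52.3 against 411, 360 and 370 in GFP-positive libraries. These groups did not overlap, and the means differed 3.89-fold and 4.96-fold (1.94, SE 0.20, adjusted p = 1.85e-05, and 2.34, SE 0.20, adjusted p = 5.06e-06). Thbs3, the pentameric member of the family, had differences of 0.94 and 1.05 that missed the threshold (adjusted p = 0.11 and 0.085); 318 of its exonic bases overlap Mtx1 on the opposite strand.

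Calcium-binding matricellular proteins of the SPARC family differed from each other. Sparc, which binds collagen and shapes its assembly, was the most abundant member per kilobase of exon in all 4 groups, with group means of 5862 to 6790 normalized counts per kb. Its counts lay between 21911 and 27132 in all libraries. The difference was -0.11 (SE 0.05, adjusted p = 0.128) in GFP-negative and -0.15 (SE 0.05, adjusted p = 0.0498) in GFP-positive libraries. Smoc2, an adhesive relative, had 70.7, 49.9 and 53.5 in GFP-negative controls and 283, 230 and 259 under the SIX2 label. Its GFP-positive values were 19.1, 51.5 and 33.7 against 73.2, 72.1 and 84.7. It rose 4.43-fold and 2.2-fold by group means (2.14, SE 0.30, adjusted p = 0.000169, and 1.22, SE 0.30, adjusted p = 0.00927), with no overlap in either comparison. Smoc1, which inhibits BMP signalling, was near the detection limit: 8.57, 7.93 and 4.69 against 32.1, 19.8 and 1.2 in GFP-negative libraries, which overlapped (adjusted p = 0.693). Its GFP-positive values were 0.765, 6.64 and 0.844, or 1, 12 and 1 reads, against 21.4, 27.3 and 19.5. This was a rise of 3.01 (SE 0.89, adjusted p = 0.0259). No control library reached the filter of 10 counts, so Smoc1 was tested only because of its SIX2-labelled libraries. The Smoc1 call was lost without GFP-positive control replicate 1 or 3 or GFP-positive SIX2 replicate 1 or 2 (adjusted p = 0.0571 to 0.0865), and the Sparc call without any 1 of 10 of the 12 libraries (adjusted p = 0.0567 to 0.189).

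Svep1, a large secreted protein with sushi, EGF and pentraxin domains (chr4:58042442-58206859), had 2.14, 3.17 and 15.9 in GFP-negative controls and 49.3, 67.2 and 63.8 under the SIX2 label. It rose 8.48-fold by group means (3.32, SE 0.58, adjusted p = 0.000913) and did not overlap. In GFP-positive libraries it had 4.59, 9.41 and 14.3 against 25, 27.3 and 32.6, also without overlap, but the difference of 1.60 (SE 0.58) missed the threshold with an adjusted p of 0.0631. An opposite-strand RNA, Gm26889, overlaps 2244 of its exonic bases; it was not analysed here. Spondins, secreted adhesion proteins first known from the neural floor plate, were not called: Spon1 ranged from 24.4 to 75.7 and Spon2 from 1.43 to 39.8 over the 12 libraries.

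**Figure D2:**
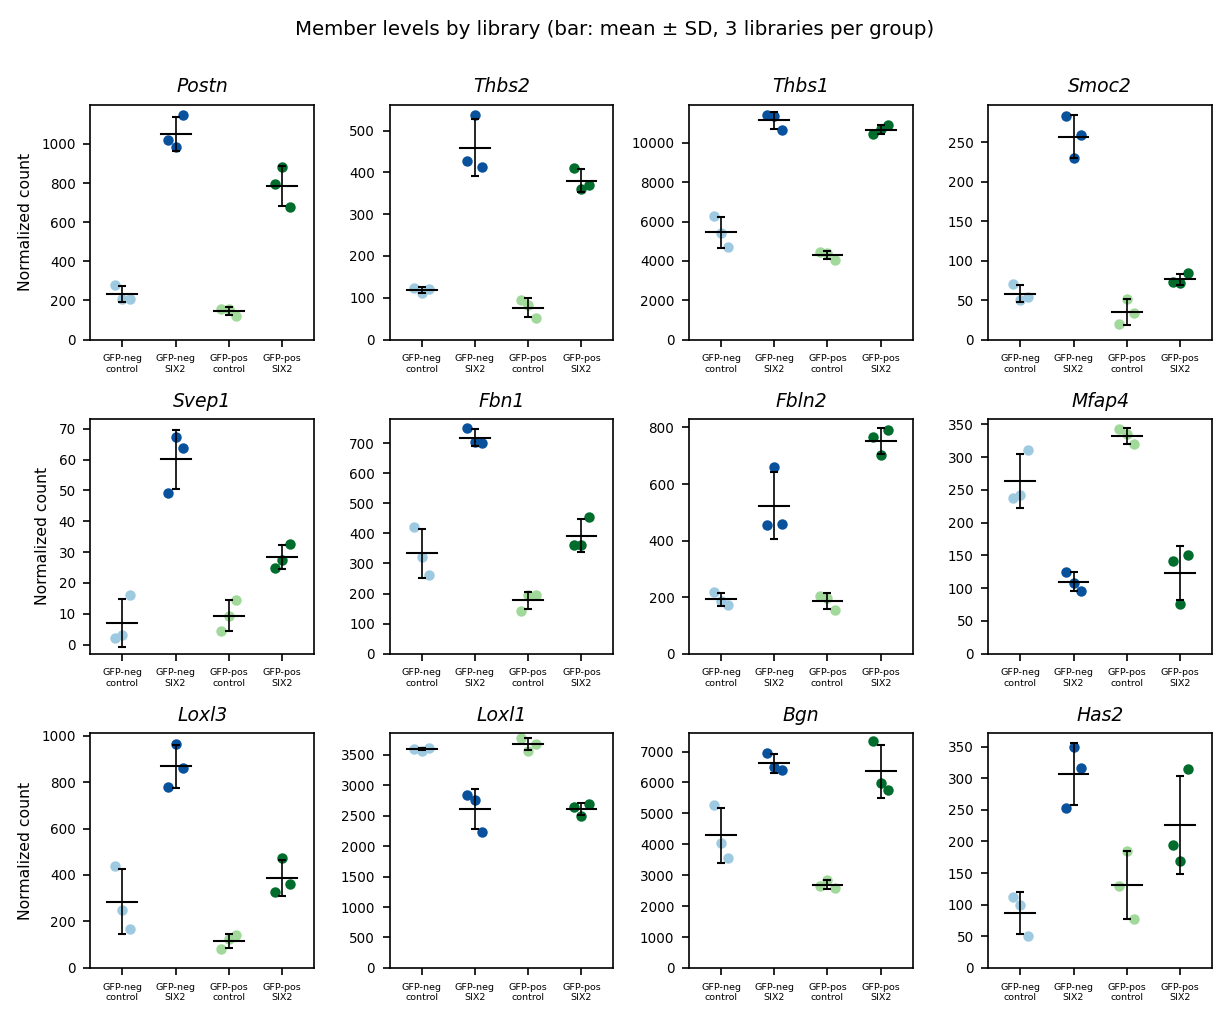
Normalized count of 12 genes in each library, by group; points are libraries, horizontal lines the group mean and vertical bars its SD (n = 3), on linear axes that start at 0, or just below it for Svep1. SIX2-labelled libraries stand above their controls for Postn, Thbs2, Thbs1, Smoc2, Fbn1, Fbln2, Loxl3 and Bgn, and below them for Mfap4 and Loxl1.

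Laminins are trimers of an alpha, a beta and a gamma chain, and the chains moved differently. Lamb1, the beta chain of embryonic and many adult laminins, had 685, 562 and 589 in GFP-negative controls and 1190, 1067 and 1154 under SIX2. The GFP-positive values were 705, 534 and 376 against 984, 1004 and 1176. Both pairs were separate, with rises of 0.90 (SE 0.17, adjusted p = 0.0018) and 1.01 (SE 0.17, adjusted p = 0.000958). Lamb2, the beta chain enriched at the neuromuscular junction, fell in GFP-negative libraries, where controls lay between 2088 and 2386 and SIX2 libraries between 1286 and 2069 (-0.45, SE 0.15, adjusted p = 0.0406). Its GFP-positive difference of -0.39 (SE 0.15) missed the threshold (adjusted p = 0.0864). The Lamb2 call was lost without GFP-negative control replicate 1, 2 or 3 or GFP-negative SIX2 replicate 2 or 3 (adjusted p = 0.0525 to 0.176).

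Lama2, the alpha chain of muscle laminin whose loss causes a congenital muscular dystrophy, rose in GFP-negative libraries, where controls lay between 1007 and 1160 and SIX2 libraries between 1497 and 1775 (0.60, SE 0.15, adjusted p = 0.00841). In GFP-positive libraries it ranged from 1168 to 1674 and from 1245 to 1908, which overlap (0.16, adjusted p = 0.479). Lama5, an alpha chain of epithelial and vascular basement membranes, had 137, 112 and 109 against 144, 157 and 140 in GFP-negative libraries (0.31, adjusted p = 0.375). Its GFP-positive values were 78, 148 and 89.4 against 222, 162 and 256, a rise of 1.04 (SE 0.24, adjusted p = 0.00644) without overlap. Lamc1, the gamma chain shared by most laminins, had 972, 781 and 914 against 675, 784 and 808 and, in GFP-positive libraries, 681, 677 and 611 against 682, 663 and 658. Both of its pairs overlapped and neither was called (-0.23 and 0.03).

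Nidogens tie laminin to collagen IV. Nid1 had 833, 640 and 524 against 1265, 1279 and 963 in GFP-negative and 447, 613 and 489 against 1066, 1093 and 1179 in GFP-positive libraries. It rose in both, by 0.83 (SE 0.16, adjusted p = 0.00227) and 1.12 (SE 0.16, adjusted p = 0.000333), with every SIX2-labelled library above every control. Nid2, the more abundant one, ranged from 1857 to 2682 over all libraries and was not called (0.19 and 0.27, adjusted p = 0.199 and 0.0695); 437 of its exonic bases overlap Rtraf on the other strand. Perlecan (Hspg2), the large heparan sulfate proteoglycan of basement membranes, had 2455 to 3087 against 1439 to 2526 in GFP-negative libraries (-0.50, SE 0.19, adjusted p = 0.0709). It fell in GFP-positive libraries (-0.57, SE 0.19, adjusted p = 0.0484), where controls at 2752 to 4423 and SIX2 libraries at 2097 to 2761 overlapped. That call was lost without any 1 of 8 of the 12 libraries (adjusted p = 0.0548 to 0.193).

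Fibrillin 1 (Fbn1), the core of microfibrils, had 420, 320 and 261 in GFP-negative controls and 750, 705 and 699 under SIX2. GFP-positive libraries had 143, 194 and 194 against 363, 360 and 456. The groups were separate in both, with rises of 1.13 (SE 0.18, adjusted p = 0.000384) and 1.15 (SE 0.18, adjusted p = 0.000414). Its exons overlap Gm9913 on the opposite strand by 2442 bases, and that gene had a mean of at most 1.39. Fibrillin 2 (Fbn2), the developmental form, lay between 1.2 and 33.9 and was not called.

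Fibulins bind microfibrils, elastin and basement membrane proteins, and 2 of the 4 rose in both comparisons. Fbln2 had 218, 186 and 174 against 455, 660 and 457 in GFP-negative libraries, and 204, 199 and 154 against 765, 701 and 790 in GFP-positive ones. It rose 2.72-fold and 4.05-fold by group means (adjusted p = 5.06e-05 and 4.2e-06), and no libraries overlapped. Efemp2 (fibulin 4), which brings lysyl oxidase to elastin, lay between 616 and 846 in GFP-negative controls and between 1116 and 1168 under SIX2, a rise of 0.63 (SE 0.14, adjusted p = 0.00387). The GFP-positive ranges were 483 to 643 and 928 to 1186, a rise of 0.99 (SE 0.14, adjusted p = 0.000213). Fbln1 rose in GFP-positive libraries (0.49, SE 0.16, adjusted p = 0.0401) and had a difference of 0.40 (adjusted p = 0.077) in GFP-negative ones; the GFP-positive call was lost without any 1 of 9 of the 12 libraries (adjusted p = 0.0507 to 0.159). Fbln5, needed for elastic fibre assembly, ranged from 129 to 200 over all libraries and was not called.

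Microfibril-associated proteins went both ways. Mfap4, which binds microfibrils and lysyl oxidase (chr11:61485431-61488900), had 238, 243 and 311 in GFP-negative controls and 125, 107 and 96.2 under SIX2. GFP-positive libraries had 343, 335 and 320 against 141, 76 and 151. The SIX2-labelled libraries were all below the controls, and the differences were -1.26 (SE 0.23, adjusted p = 0.00117) and -1.49 (SE 0.23, adjusted p = 0.000429). Mfap2, a small microfibril glycoprotein that binds TGF-beta family proteins, had 10.7, 7.14 and 5.63 against 29.3, 28.3 and 21.7 in GFP-negative libraries, a rise of 1.66 (SE 0.45, adjusted p = 0.0136). Its GFP-positive values of 6.88, 9.96 and 11 against 28.6, 11.7 and 16.3 were not called (0.88, adjusted p = 0.18). Mfap5, its relative, reached at most 17.1, and Emilin1, a glycoprotein at the elastin and microfibril interface, ranged from 474 to 872; neither was called.

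Among the crosslinking enzymes Lox and Loxl3 rose in both comparisons while Loxl1 fell in both. Lox, the founding lysyl oxidase, had 3498, 3480 and 3501 in GFP-negative controls and 4960, 4465 and 4902 under SIX2. Its GFP-positive values were 2749, 2777 and 2206 against 2973, 3926 and 3836. No libraries overlapped, and the rises were 0.45 (SE 0.11, adjusted p = 0.00688) and 0.47 (SE 0.11, adjusted p = 0.0065). Loxl1, the family member tied to elastin renewal, lay between 3569 and 3614 in GFP-negative controls and between 2227 and 2848 under SIX2, a difference of -0.47 (SE 0.08, adjusted p = 0.000876). The GFP-positive ranges were 3571 to 3775 and 2492 to 2695, a difference of -0.49 (SE 0.08, adjusted p = 0.000746). All SIX2-labelled libraries lay below all controls.

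Loxl3, a lysyl oxidase with scavenger receptor domains (chr6:83034173-83052562), had 439, 251 and 167 against 780, 966 and 859 in GFP-negative libraries. Its GFP-positive values were 80.3, 124 and 140 against 325, 474 and 360. These did not overlap, and the means differed 3.04-fold and 3.36-fold (1.71, SE 0.29, adjusted p = 0.000757, and 1.76, SE 0.29, adjusted p = 0.000738). Htra2 overlaps 535 of its exonic bases on the opposite strand, with group means of 2059 to 2190. Loxl2, a close relative that oxidises collagen IV, had 2.14, 3.96 and 6.57 against 17.1, 18.4 and 40.3 in GFP-negative libraries, a rise of 2.32 (SE 0.50, adjusted p = 0.00371). As for Smoc1, no control library of either population reached the filter of 10 counts, so Loxl2 was tested only because of SIX2-labelled libraries. In GFP-positive libraries its 9.94, 9.41 and 9.28 against 26.8, 17.5 and 14.7 did not overlap but missed the threshold (0.93, SE 0.50, adjusted p = 0.206). Loxl4 lay between 5 and 53.6 and was not called.

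The make-up of families differed between the groups, as shares of their summed level per kb (description, no test). In GFP-negative libraries Loxl1 held 56.5 to 58.6% of the LOX family in controls and 35.6 to 42.0% under SIX2, Lox 37.9 to 39.2% and 47.0 to 54.0%, and Loxl3 1.94 to 4.93% and 8.17 to 10.6%. The GFP-positive shares were 63.8 to 69.2% and 44.8 to 53.1% for Loxl1, 28.6 to 34.2% and 41.3 to 48.7% for Lox, and 0.999 to 1.89% and 4.59 to 6.10% for Loxl3. The share of Lamb1 in Lamb1 plus Lamb2 was 12.6 to 15.2% in GFP-negative controls and 26.1 to 35.5% under SIX2, and 8.86 to 14.6% against 23.2 to 25.6% in GFP-positive libraries. Nid1 held 17.1 to 22.7% of the nidogens in GFP-negative controls and 25.8 to 28.3% under SIX2, and 14.5 to 16.5% against 24.7 to 26.0% in GFP-positive libraries. None of these ranges overlapped between plasmid labels, but some other shares did. Efemp2 held 55.7 to 62.1% of the fibulins in GFP-negative controls and 57.5 to 60.5% under SIX2. In GFP-positive libraries it held 46.0 to 55.9% against 49.5 to 55.7%. The shares of the other fibulins did not overlap in either comparison. Those of Fbn1 among fibrillins and Loxl4 in the LOX family overlapped in both. The Smoc2 share of Smoc1 plus Smoc2 overlapped in GFP-negative libraries only. Lama2 kept 79.1 to 93.7% of the laminin alpha level and Thbs1 95.5 to 98.6% of the thrombospondins in every library. In the order of level per kb, Loxl1 was the second in both control groups, and Thbs1 the second and Bgn the third in both SIX2 groups.

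**Figure D3:**
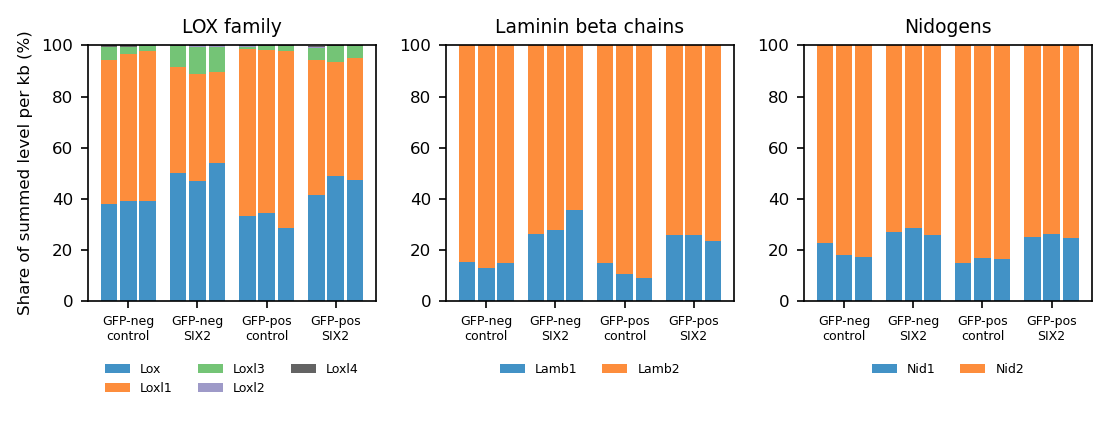
Share of each gene in the summed normalized count per kb of its family, in percent, 1 bar per library, for the LOX family, the laminin beta chains Lamb1 and Lamb2, and the nidogens. Blue segments (Lox, Lamb1, Nid1) are taller in SIX2-labelled than in control-labelled libraries.

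All 3 genes of proteoglycans and hyaluronan synthesis rose in GFP-negative libraries, and 2 of 3 in GFP-positive ones. Versican (Vcan), a large hyaluronan-binding proteoglycan, had 285, 248 and 247 against 705, 607 and 530, and 203, 216 and 117 against 400, 407 and 477. Both pairs were separate (2.36-fold, adjusted p = 0.000529, and 2.39-fold, adjusted p = 0.000441). Biglycan (Bgn), a small leucine-rich proteoglycan of collagen fibrils (chrX:73483602-73495933), had 5276, 4046 and 3552 against 6946, 6509 and 6388 in GFP-negative libraries. GFP-positive libraries had 2642, 2853 and 2593 against 7351, 5980 and 5762. It rose 1.54-fold and 2.36-fold by group means (0.64, SE 0.12, adjusted p = 0.00164, and 1.23, SE 0.12, adjusted p = 1.69e-05), again without overlap. Has2, the main hyaluronan synthase of mesenchymal cells, had 111, 99.9 and 49.7 against 253, 350 and 316, a rise of 1.87 (SE 0.35, adjusted p = 0.00136). Its GFP-positive values of 130, 184 and 76.8 against 195, 170 and 314 overlapped and were not called (0.83, SE 0.35, adjusted p = 0.106).

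Comparing the sorted populations asks which matrix genes go with the Pax3 reporter. Under the control plasmid limma-trend called none of the 38 genes higher in GFP-positive libraries (0.919% of all genes were) and 7 were lower (2.56% of all genes): Postn, Thbs1, Lamc1, Fbn1, Lox, Loxl3 and Bgn. Their library values stand above, and in all 7 the GFP-positive and GFP-negative controls did not overlap. Differences ran from -0.33 for Thbs1 (SE 0.09, adjusted p = 0.0493) to -1.23 for Loxl3 (SE 0.29, adjusted p = 0.0371), with Fbn1 at -0.90 (SE 0.18, adjusted p = 0.0177) and Bgn at -0.65 (SE 0.12, adjusted p = 0.0153). The share of all genes whose controls did not overlap was not counted. At an unadjusted p under 0.05 in limma-trend there were 14 of the 38 genes and 2889 of all 14580. Spon1, at 1.17 (SE 0.31, adjusted p = 0.0578), was called higher with DESeq2, with library weights and without GFP-negative SIX2 replicate 3 (adjusted p of 0.0204 to 0.222 over all 25 alternatives). The median over the 38 genes was -0.23, against -0.0017 over all genes, but it was 0.0066 without GFP-positive control replicate 3 and -0.12 without GFP-negative control replicate 1. The count of 7 called genes depended on single libraries: it was 0 without GFP-negative control replicate 1 or GFP-positive control replicate 1, 2 without replicate 2 of either control group, 3 without GFP-positive control replicate 3 or GFP-negative SIX2 replicate 2, and 4 without GFP-negative control replicate 3. GFP-negative control replicate 1 had the lowest depth of all and was the highest of its group for Postn, Thbs1, Lamc1, Fbn1, Loxl3 and Bgn.

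**Figure D4:**
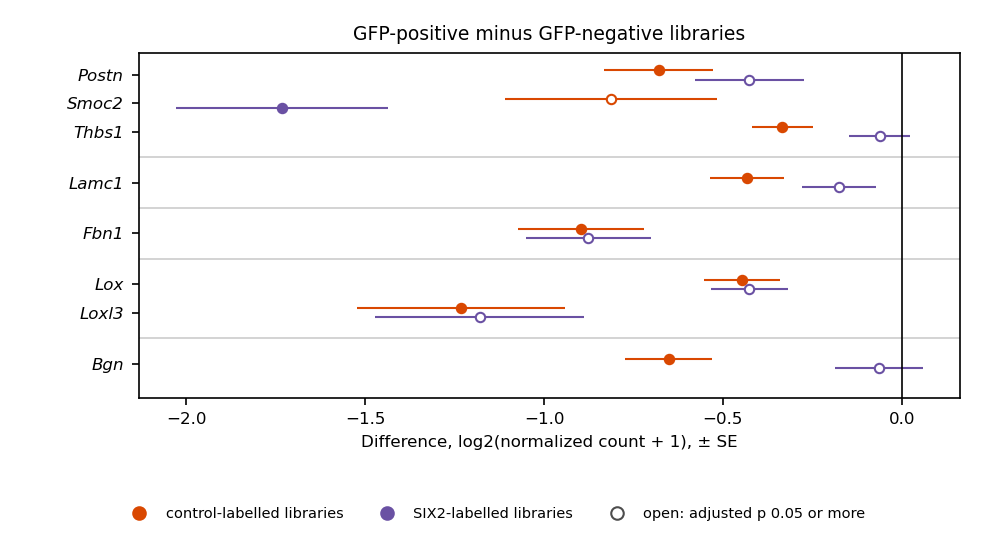
GFP-positive minus GFP-negative difference, in log2(normalized count + 1) with the standard error as bars, for the 8 genes called under either plasmid; orange marks control-labelled and purple SIX2-labelled libraries, and filled points have an adjusted p below 0.05. All 8 genes lie left of 0 under both plasmids, with Bgn and Thbs1 close to 0 under SIX2.

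Under the SIX2 plasmid none of the 38 genes was higher in GFP-positive libraries (0.0137% of all genes) and 1 was lower (0.178% of all genes). This was Smoc2, at 283, 230 and 259 in GFP-negative and 73.2, 72.1 and 84.7 in GFP-positive libraries, a 3.36-fold lower mean with no overlap (-1.73, SE 0.30, adjusted p = 0.0313). The Smoc2 call was lost without any 1 of 8 of the 12 libraries (adjusted p = 0.054 to 0.188), though its difference kept between -1.81 and -1.66 in every alternative fit. Fbn1 (-0.88, adjusted p = 0.0715) and Loxl3 (-1.18, adjusted p = 0.116) had differences beside -0.90 and -1.23 under the control plasmid, but missed the threshold here. Depth was 34048869 to 40182810 reads in GFP-negative and 12632428 to 15492340 in GFP-positive SIX2 libraries. With every library thinned to the smallest depth, Smoc2 was still the 1 member called, among 25 genes in all. Other ways in which depth could act were not tested.

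Whether the plasmid difference itself depended on the GFP label was tested as an interaction, and no member was called, as 0% of all genes were by limma-trend or edgeR (558 genes by DESeq2). At an unadjusted p under 0.05 there were 2437 of all genes and 5 of the 38 members. The smallest p belonged to Bgn, whose rise was 0.59 larger (SE 0.17, adjusted p = 0.134) in GFP-positive libraries, then to Fbln2 (0.60, SE 0.23, adjusted p = 0.221) and Thbs1 (0.27, SE 0.12, adjusted p = 0.278). Genes called in one sorted population and not in the other, such as Svep1, Has2, Loxl2, Lama2 and Lama5, were therefore not shown to differ between them. The plasmid and GFP comparisons share their control libraries, so their differences are not independent of each other.

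Other matrix genes were counted from 4 lists, which, like the 40 genes, were chosen with earlier results of these data known. Over all tested genes 13.6% rose and 14.3% fell in GFP-negative libraries, and 12.1% rose and 11.2% fell in GFP-positive ones. Of 35 tested matrix glycoproteins and proteoglycans outside the 40, 7 rose and 7 fell in GFP-negative libraries and 9 rose and 7 fell in GFP-positive ones. Ccn2, a matricellular YAP and TGF-beta target, rose from 481 to 1259 and from 533 to 1236 (1.41 and 1.21), and Npnt, an integrin ligand, fell from 11514 to 6685 and from 11232 to 7383 (-0.79 and -0.61). Among 28 matrix receptors, 6 rose and 10 fell in GFP-negative libraries and 6 rose and 6 fell in GFP-positive ones. Cd44, the hyaluronan receptor, rose (0.72 and 0.86) as did the heparan sulfate receptor Sdc4 (0.75 and 0.91), while Cd36, a thrombospondin receptor, fell (-1.54 and -1.66). Of 17 collagen processing enzymes 1 rose and 1 fell in GFP-negative libraries and 6 rose and none fell in GFP-positive ones, among them Pcolce2, an enhancer of procollagen cleavage (0.58 and 0.95). Of 15 TGF-beta ligands and targets 4 rose and 3 fell, and 3 rose and 4 fell. Inhba, a subunit of activin, rose (1.70 and 1.22) and Tgfb2, a ligand, fell (-0.53 and -0.84). Tgfb1, another ligand, fell in GFP-negative libraries from a mean of 135 to 27.0 (-2.25, adjusted p = 0.000222). Its GFP-positive difference was not called (-0.74, adjusted p = 0.118). Smad7 fell in GFP-positive libraries (-0.78) and was not called in GFP-negative ones (-0.23). The median difference of the 35 glycoproteins was 0.17 and 0.082, beside 0.64 and 0.91 in the 38 tested genes described here.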

How the data were processed

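Muscle stem cell RNA was made into cDNA by SMART-Seq2, which does not mark strand or molecules, and fragmented with Tn5, per the labels' protocols. STAR 2.7.11a, RSEM 1.3.3, GRCm38 and DESeq2 1.42.0 are named in the submitters' processing notes. The authors deposited normalized counts, a signal scaled between libraries. In each library 100% of values were whole multiples of the smallest value (tolerance 0.0001), so reads were recovered. Gene identifiers, without their version, matched GENCODE vM21 on GRCm38 for 99.8% of genes, which gave exon lengths. A gene had to reach 10 normalized counts in 3 or more libraries, and such genes were tested with limma 3.58.1 (eBayes with trend, two-sided, Benjamini-Hochberg) on log2(normalized count + 1), with 4 group means over 12 libraries. The script was tested on simulated data.

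All 40 genes are described by role. Library values are given for genes called with at least a 2-fold change in a plasmid comparison, called in a GFP comparison, or among the 3 smallest interaction p-values, and up to 4 genes per further list could be named. The members and lists were chosen with earlier results of these data known. Alternatives were other pseudocounts, filters and scalings, a GC correction, thinning, library weights, a replicate block, only the libraries compared, leaving out each library, and edgeR 4.0.16 and DESeq2 1.42.0 on recovered reads. edgeR's quasi-likelihood test called 2080 genes higher and 1984 lower in GFP-negative libraries, and 1765 and 1534 in GFP-positive ones.

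Depth was 12438885 to 47299937 reads, so 1 read was worth 0.553 to 2.14 normalized counts. Replicates differed beyond counting noise. Reads without molecular identifiers are not independent molecules. Exons of 17 members overlap a gene on the opposite strand, whose reads cannot be told apart.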

Additional observations from a re-analysis of the deposited data

How the results depend on the processing

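Of the 23 calls in the GFP-negative plasmid comparison 19 held in all 25 alternatives, Svep1, Mfap2 and Loxl2 held in the 24 that tested them, and Lamb2 was lost in some; of 22 in the GFP-positive one 17 held in all 25, the exceptions being Sparc, Smoc1, Smoc2, Hspg2 and Fbln1. Leaving out each library gave 22 to 25 and 18 to 24 called members. The 7 members lower in GFP-positive controls (507 genes called in all) became 6 with a pseudocount of 0.5 (489 genes) and 4 with no filter on low values (342). They became 3 with quantile scaling (361), 3 with only the libraries compared (465), 3 with the replicate block (298) and 4 with thinning (484). With library weights (1520) and with DESeq2 (1087) 10 were called, 9 lower and 1 higher in each. Leaving out each library gave 0 to 7, and none of the 7 was called in every alternative. The single member called between GFP labels under SIX2 became 3 with only the libraries compared (19 genes in all) and 0 with the replicate block (20). It became 2 with library weights (41) and 4 with DESeq2 (294), and 0 to 2 when each library was left out. No member passed the interaction test without any 1 library (0 to 0), but 1, Bgn, did with DESeq2. No called difference changed sign. The causes were not tested. With the replicate block 22 and 21 members were called in the plasmid comparisons, beside 3740 and 3153 of all genes. Libraries with the same number did not deviate together (correlations of -0.203 to 0.0446), which cannot show whether they came from the same animal or culture. Over all genes the GFP-negative count of 4075 became 6142 with library weights and ran from 2989 to 4301 when each library was left out (2519 to 3493 for GFP-positive), and the 507 genes called between controls became 298 with the block, 342 with no filter, 1087 with DESeq2 and 1520 with library weights, and 68 to 820 when each library was left out. Under SIX2 the 28 such genes became 294 with DESeq2 and 13 to 60 when each library was left out, and the interaction's 0 became 282 with library weights and 558 with DESeq2, and 0 to 171 when each library was left out. A filter of 50 counts left 29 members, which drops Smoc1, Svep1, Mfap2 and Loxl2. Of the calls on these 4, Smoc1 was lost with thinning to the smallest depth and the other 3 were not.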
